A study of Mus musculus with 14 samples.

Results

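Lrrk2, Rps6kc1, Ipcef1 and Nxpe5 are 4 mouse genes whose response to N-Myc differed between hematopoietic progenitor cells (HPCs) of 2 Polg genotypes. They were picked by name for a different N-Myc effect in homozygous mutant (Hom) than in wild-type (WT) cells, so the values in those genotypes are what chose them. The Het arrays entered that choice only through the spread, which the fit estimates over all arrays. Each gene had 1 probe set, and these are 4 of the 22206 probe sets tested. The study measured RNA on 14 Affymetrix whole-transcript arrays of lineage-negative bone marrow cells, kept in culture before retroviral transduction. The MSCV vector carried N-Myc and a yellow fluorescent marker (NMyc) or the marker alone (Ctrl). The groups were Hom-NMyc (Polgmut/mut, n = 2), Hom-Ctrl (n = 2), Het-NMyc (Polgwt/mut, n = 2), Het-Ctrl (n = 3), WT-NMyc (Polgwt/wt, n = 2) and WT-Ctrl (n = 3). All groups were cultured in the same medium, and the Ctrl groups carried the empty marker virus. The sources used here do not give the mut allele, the animals' age or sex, whether animals were pooled, or whether marker-positive cells were sorted before RNA extraction.

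N-Myc is a transcription factor of the MYC family. As a dimer with MAX it binds E-box DNA and raises genes of growth and ribosome production, and many genes of differentiated cells fall when it is high. Polg encodes the polymerase that copies mitochondrial DNA, and mice with a proofreading-deficient form gather mitochondrial DNA mutations and show impaired blood formation. Lrrk2 encodes a large protein with a GTPase and a kinase domain that phosphorylates Rab GTPases. It is abundant in myeloid cells, and mutations of the human gene cause inherited Parkinson's disease. Rps6kc1 encodes a protein related to the ribosomal S6 kinases with a lipid-binding PX domain, and the human protein binds sphingosine kinase 1 and peroxiredoxin 3. Ipcef1 encodes a partner of cytohesins, the exchange factors that switch on the small GTPase Arf6. Nxpe5 belongs to the neurexophilin and PC-esterase domain family.

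Because N-Myc acts at DNA, the promoters of the 4 genes are shown first. Each line gives 250 bases before to 50 bases after a transcription start, 5′ to 3′ on the gene's strand, from RefSeq on GRCm38.p6. Capitals mark CpG dinucleotides. The windows are chr15:91672974-91673273 (plus strand) for Lrrk2, chr1:190911721-190912020 (minus) for Rps6kc1, chr10:7023136-7023435 (minus) for Ipcef1 and chr5:138225654-138225953 (plus) for Nxpe5.
Lrrk2: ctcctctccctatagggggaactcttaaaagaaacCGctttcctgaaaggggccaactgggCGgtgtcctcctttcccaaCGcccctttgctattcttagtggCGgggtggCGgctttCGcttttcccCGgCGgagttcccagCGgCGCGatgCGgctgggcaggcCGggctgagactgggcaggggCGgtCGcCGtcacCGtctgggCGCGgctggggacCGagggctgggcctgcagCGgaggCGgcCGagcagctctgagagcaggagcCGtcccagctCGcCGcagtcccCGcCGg
Rps6kc1: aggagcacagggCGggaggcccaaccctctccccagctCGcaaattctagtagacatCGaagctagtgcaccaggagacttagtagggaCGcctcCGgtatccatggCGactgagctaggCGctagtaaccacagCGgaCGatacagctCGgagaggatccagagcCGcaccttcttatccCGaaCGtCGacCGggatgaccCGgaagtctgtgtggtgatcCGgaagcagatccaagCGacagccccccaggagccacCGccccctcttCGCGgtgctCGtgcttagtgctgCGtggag
Ipcef1: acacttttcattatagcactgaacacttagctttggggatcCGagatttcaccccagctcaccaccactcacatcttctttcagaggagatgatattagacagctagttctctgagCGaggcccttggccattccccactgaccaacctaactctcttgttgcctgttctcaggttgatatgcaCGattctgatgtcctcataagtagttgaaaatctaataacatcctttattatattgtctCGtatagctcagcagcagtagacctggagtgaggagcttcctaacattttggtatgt
Nxpe5: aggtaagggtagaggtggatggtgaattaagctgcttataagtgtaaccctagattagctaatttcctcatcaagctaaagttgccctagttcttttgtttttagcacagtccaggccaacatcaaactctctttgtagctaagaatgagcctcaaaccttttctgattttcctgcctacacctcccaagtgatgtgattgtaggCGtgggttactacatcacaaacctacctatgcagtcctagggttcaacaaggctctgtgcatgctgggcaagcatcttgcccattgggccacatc
The promoters were of unlike composition. Lrrk2 held 28 CpG dinucleotides at 68.7% GC and Rps6kc1 held 23 at 61.3%, against a median of 7 CpG and 52.7% GC over 32851 promoters of 300 bases. Ipcef1 held 4 at 43.7% and Nxpe5 only 1 at 45.0%. The canonical E-box CACGTG was in none of the 6 promoters listed for the 4 genes (3 of them for Ipcef1, of which the start farthest upstream is shown), and 7.15% of all promoters held it. The non-canonical E-box CACGCG, read on both strands, was also in none of the 6, and 9.27% of all promoters held it. A missing match says only that these letters are not in these windows.

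The transduced gene was read first as a check of the labels. Mycn stood at 12.15 to 12.38 log2 units in the 6 NMyc arrays. It was 7.43 to 7.76 in the Ctrl arrays other than Hom-Ctrl replicate 1, which read 9.77. The library labelled Hom-Ctrl replicate 1 thus went against its label in part, and values of the 4 genes are given with and without it. Of the defining progenitor markers, Kit (9.09 to 10.10) and Cd34 (8.14 to 9.70) were above the median of the negative control probe sets of every array (4.39 to 4.87). Flt3 was above it in 7 of 14 arrays and Procr in 6. Neutrophil genes such as S100a8 (12.11 to 13.01) and Ltf (9.30 to 12.003) were also well above that median in every array. So were mast cell and basophil genes such as Mcpt8 (12.46 to 13.30) and Cpa3 (11.37 to 12.56). Of 10 listed mast cell and basophil markers, Kit among them, 9 were above the median in all 14 arrays, and Mcpt4 in 7. The related gene Myc was lower in NMyc than in Ctrl arrays of each genotype, at 10.35 and 10.64 in Hom-NMyc cells and 11.19 and 11.34 in Hom-Ctrl cells, 9.87 and 10.03 in Het-NMyc cells and 11.31 to 11.50 in Het-Ctrl cells, and 9.45 and 9.93 in WT-NMyc cells and 11.38 to 11.45 in WT-Ctrl cells. Polg RNA lay between 6.91 and 7.67 in all arrays.

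All 4 genes were highest in Het-Ctrl and WT-Ctrl cells. With the Ctrl vector, Hom cells stood below both other genotypes. How near they came to the NMyc groups differed by gene. The WT-NMyc minus Hom-Ctrl difference was -0.19 for Ipcef1, with overlap, and without overlap -0.45 for Rps6kc1, -0.51 for Lrrk2 and -1.10 for Nxpe5. The Het-NMyc minus Hom-Ctrl difference was 0.03 for Ipcef1 and -0.39 for Lrrk2, both with overlap. Without overlap it was 0.12 for Rps6kc1, with Het-NMyc the higher, and -0.59 for Nxpe5. In these bulk samples, fewer cells of a type and less RNA per cell cannot be told apart. Both Hom-Ctrl arrays lay below all 6 Het-Ctrl and WT-Ctrl arrays for each of the 4 genes, a pattern found in 8.15% of all probe sets. The choice of the genes used these arrays, so nothing is read from that count. All values below are log2 expression.

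Lrrk2 read 4.86 and 4.89 in Hom-NMyc cells, against 5.89 and 5.19 in Hom-Ctrl cells (replicates 1 and 2). It read 5.23 and 5.08 in Het-NMyc cells, against 7.14, 6.80 and 6.96 in Het-Ctrl cells. In WT-NMyc cells it read 5.17 and 4.90, against 7.21, 7.39 and 7.44 in WT-Ctrl cells. NMyc arrays thus lay below the Ctrl arrays of their own genotype in all 3 genotypes with no overlap. The order of the group means, low to high, was Hom-NMyc, WT-NMyc, Het-NMyc, Hom-Ctrl, Het-Ctrl and WT-Ctrl. The ranges of WT-NMyc and Het-NMyc overlapped, as did those of Het-NMyc and Hom-Ctrl. Lrrk2 sat close to background when low, since only 60.4% to 67.9% of negative control sets were dimmer in the NMyc arrays and 61.6% in Hom-Ctrl replicate 2. In the WT-Ctrl arrays 91.8% to 94.3% were dimmer. The size of its differences is therefore limited by that background.

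Rps6kc1 read 5.93 and 6.68 in Hom-NMyc cells, against 6.32 and 6.23 in Hom-Ctrl cells. Those groups overlapped, with Hom-NMyc spread around Hom-Ctrl. It read 6.36 and 6.43 in Het-NMyc cells, against 7.56, 7.41 and 7.23 in Het-Ctrl cells. In WT-NMyc cells it read 5.78 and 5.88, against 7.50, 7.67 and 7.28 in WT-Ctrl cells. WT-NMyc was lowest with no overlap to the next group. Hom-Ctrl, Hom-NMyc and Het-NMyc then followed at means of 6.28, 6.30 and 6.40 with overlapping neighbours, and Het-Ctrl and WT-Ctrl overlapped at the top.

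Ipcef1 read 6.49 and 5.90 in Hom-NMyc cells, against 6.60 and 6.07 in Hom-Ctrl cells. It read 6.33 and 6.41 in Het-NMyc cells, against 7.74, 7.57 and 7.88 in Het-Ctrl cells. In WT-NMyc cells it read 6.18 and 6.10, against 7.998, 8.12 and 8.20 in WT-Ctrl cells. The 4 lowest groups (WT-NMyc, Hom-NMyc, Hom-Ctrl and Het-NMyc) lay within means of 6.14 to 6.37, and each overlapped the next. Het-Ctrl and WT-Ctrl stood clear of them and of each other.

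Nxpe5 read 6.28 and 6.41 in Hom-NMyc cells, against 6.56 and 6.84 in Hom-Ctrl cells. It read 6.0 and 6.22 in Het-NMyc cells, against 7.58, 7.69 and 7.61 in Het-Ctrl cells. In WT-NMyc cells it read 5.67 and 5.53, against 7.30, 7.95 and 8.22 in WT-Ctrl cells. Under N-Myc both Hom arrays lay above both Het arrays, and both Het arrays above both WT arrays. The gap from the highest Het-NMyc array (6.22) to the lowest Hom-NMyc array (6.28) was narrow. With 2 arrays a group, and Hom and WT used in the choice, no grading by genotype is read from this. How many of all probe sets have this order was not counted. Only Het-Ctrl and WT-Ctrl overlapped among neighbours in the order of the Nxpe5 group means.

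**Figure D1:**
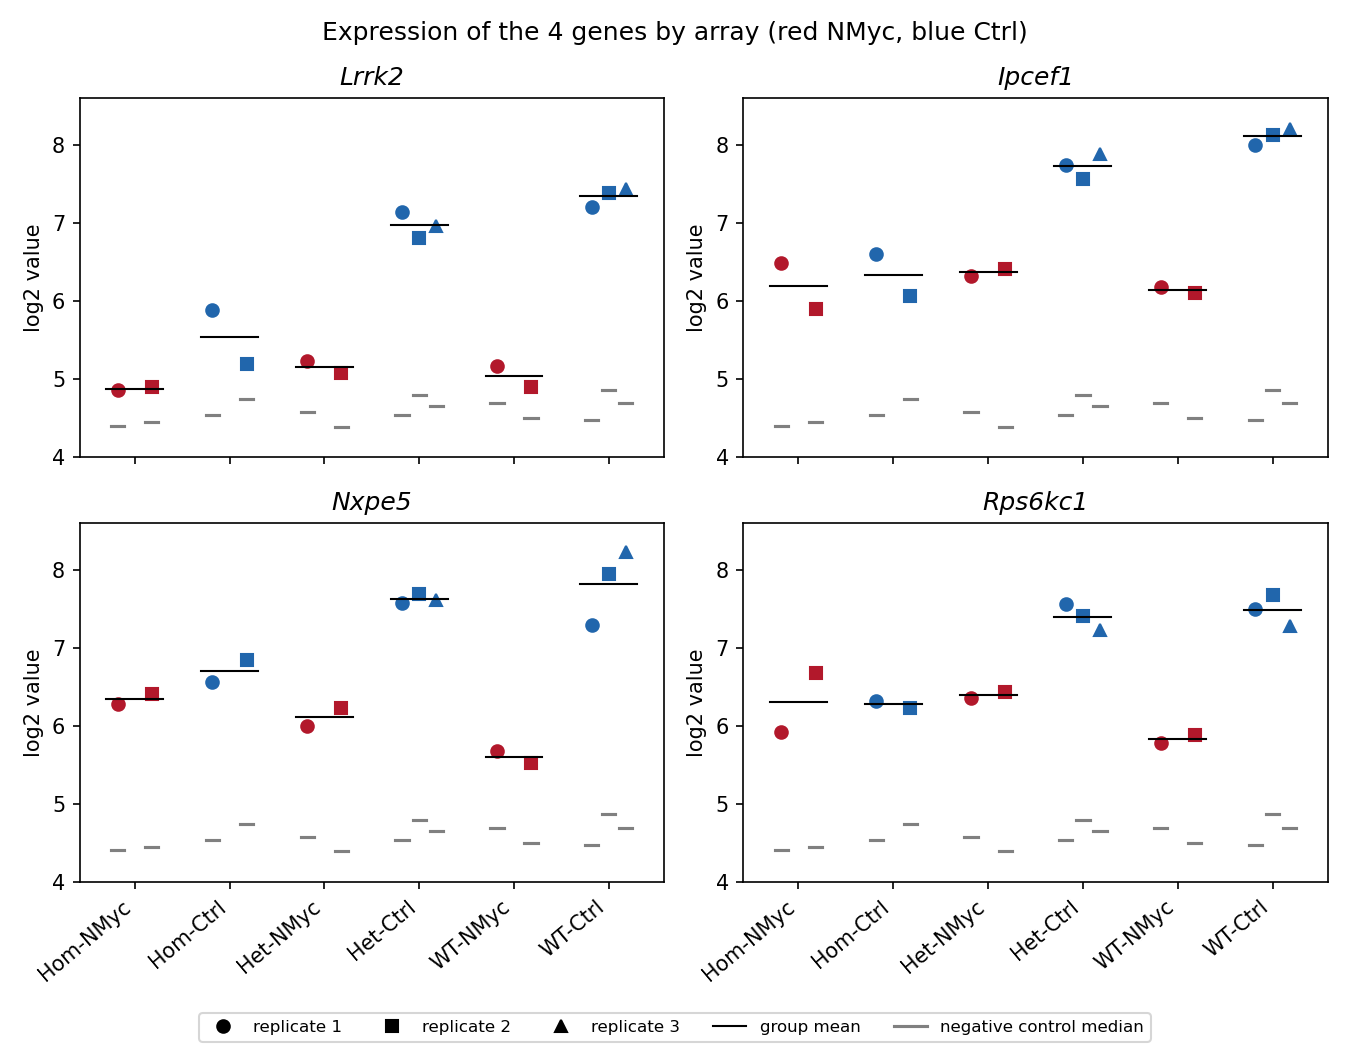
Log2 value of Lrrk2, Ipcef1, Nxpe5 and Rps6kc1 in each of the 14 arrays, by group (red NMyc, blue Ctrl; symbols show the replicate number, black lines group means, grey ticks each array's median of the negative control sets). Het-Ctrl and WT-Ctrl stand high for each gene, while both Hom-Ctrl arrays lie below them, and Lrrk2 in NMyc arrays lies within 0.69 of the grey ticks.

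The Hom minus WT difference of N-Myc effects, for which the genes were chosen, can be split by vector, as a description. For Lrrk2, Hom-Ctrl (5.54) and WT-Ctrl (7.35) differed by -1.80, while Hom-NMyc (4.88) and WT-NMyc (5.03) differed by -0.16. Ipcef1 was alike, with means of 6.33 in Hom-Ctrl and 8.11 in WT-Ctrl (a difference of -1.77) and 6.19 in Hom-NMyc and 6.14 in WT-NMyc (0.05). For Ipcef1 the NMyc groups overlapped and the Ctrl groups did not. For Lrrk2 Hom-NMyc (highest 4.89) lay just below WT-NMyc (lowest 4.90). Both Lrrk2 groups were close to background, so a difference between them could be missed. For Rps6kc1 and Nxpe5, Hom cells lay below WT cells with the Ctrl vector and above them with N-Myc, without overlap. The 2 Hom-NMyc arrays of Rps6kc1 were far apart (5.93 and 6.68), and the lower was close to the higher WT-NMyc array (5.88). Rps6kc1 differed by -1.21 between Hom-Ctrl and WT-Ctrl and by 0.48 between Hom-NMyc and WT-NMyc, and Nxpe5 by -1.12 and 0.75. Against Het-Ctrl, the Hom-Ctrl means differed by -1.43 for Lrrk2, -1.39 for Ipcef1, -0.92 for Nxpe5 and -1.12 for Rps6kc1.

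The low Hom-Ctrl values were also seen without the array with raised Mycn. That leaves a single Hom-Ctrl array, which the choice of the genes used too, so the values are a description. Hom-Ctrl replicate 2, whose Mycn was 7.61, differed from the WT-Ctrl mean by -2.15 for Lrrk2, -2.04 for Ipcef1, -0.98 for Nxpe5 and -1.26 for Rps6kc1. For Lrrk2 and Ipcef1 it was the lower of the 2 Hom-Ctrl arrays, and for Nxpe5 the higher.

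The N-Myc effect itself (NMyc minus Ctrl) was smallest in Hom cells for each gene. Lrrk2 differed by -0.66 in Hom (SE 0.21), -1.82 in Het (SE 0.19) and -2.31 in WT (SE 0.19). Rps6kc1 differed by 0.03 in Hom (SE 0.21), -1.0 in Het (SE 0.20) and -1.65 in WT (SE 0.20). Ipcef1 differed by -0.14 in Hom (SE 0.21), -1.36 in Het (SE 0.19) and -1.97 in WT (SE 0.19). Nxpe5 differed by -0.36 in Hom (SE 0.23), -1.51 in Het (SE 0.21) and -2.22 in WT (SE 0.21). Het lay between Hom and WT for each of the 4. The choice of genes set Hom and WT far apart, so nothing is read from the place of Het between them. The Hom and WT values and their order are descriptions with no test, since they chose the genes.

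In the Hom minus WT contrast limma called 18 of 22206 probe sets (0.0811%, with 0.0721% positive and 0.00901% negative) at an adjusted p under 0.05. All 4 genes are among them, since they were chosen so. They ranked 9 (Ipcef1), 15 (Nxpe5), 16 (Lrrk2) and 17 (Rps6kc1) by p, with differences of 1.83, 1.86, 1.65 and 1.68. With 1 array left out at a time that count ran between 0 and 33. Without Hom-Ctrl replicate 1 the difference was 1.99 for Lrrk2, 2.09 for Ipcef1, 1.72 for Nxpe5 and 1.73 for Rps6kc1. The N-Myc effect in Hom was then -0.32 for Lrrk2, 0.13 for Ipcef1, -0.50 for Nxpe5 and 0.08 for Rps6kc1. The difference was thus no smaller for Lrrk2, Ipcef1 and Rps6kc1 without that array, and a little smaller for Nxpe5.

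**Figure D2:**
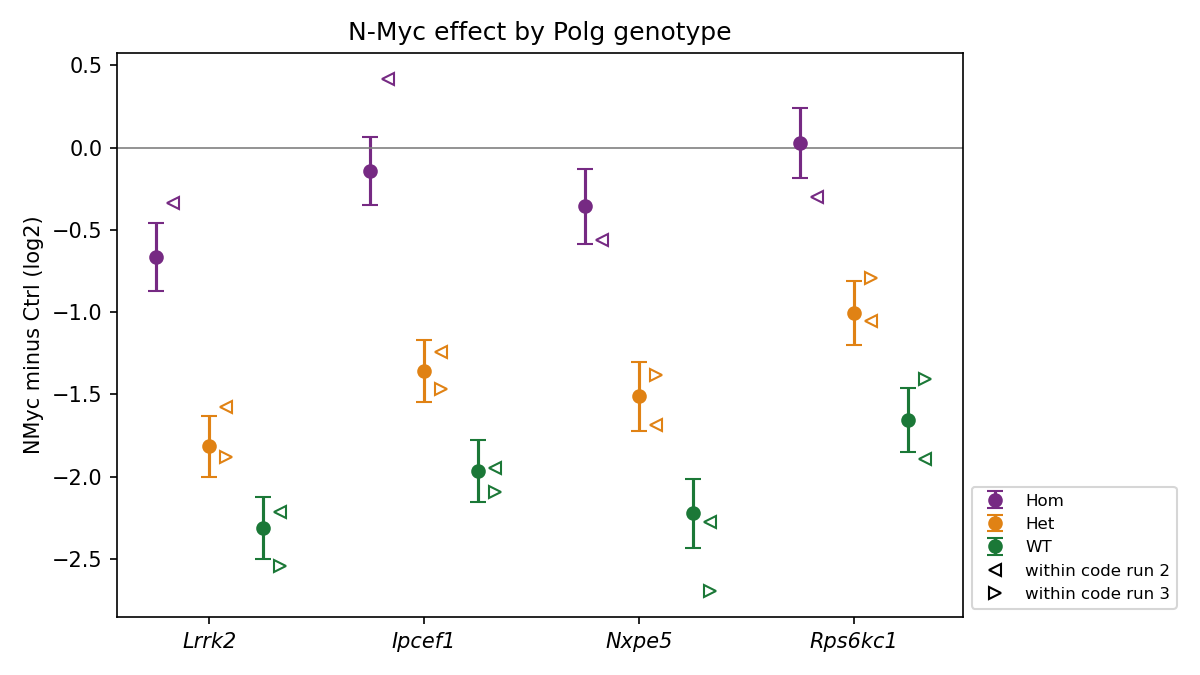
N-Myc effect (NMyc minus Ctrl, log2) of the 4 genes in Hom, Het and WT cells; filled points are the limma estimates with bars of 1 SE, open triangles the differences within code runs 2 and 3 (Hom has both vectors in run 2 alone). Het ran from -1.82 for Lrrk2 to -1.0 for Rps6kc1. Its place between Hom and WT is not read as a result, since those genotypes chose the genes.

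The levels in the 5 Het arrays did not enter the Hom minus WT difference, so the N-Myc effect was tested there. The test is not fully independent of the choice, because the Het arrays share in the estimate of spread: without either Het-NMyc array the Hom minus WT calls numbered 11 rather than 18. The 4 genes were also picked by name with earlier results of these data known, so Het values may have played a part in the choice. All 4 genes fell. Lrrk2 fell by 1.82 on the log2 scale (SE 0.19, 3.52-fold, 95% interval -2.22 to -1.42, limma adjusted p = 1.01e-05). Nxpe5 fell by 1.51 (SE 0.21, 2.85-fold, limma adjusted p = 0.000111) and Ipcef1 by 1.36 (SE 0.19, 2.56-fold, limma adjusted p = 0.000111). Rps6kc1 fell by 1.0 (SE 0.20, 2.01-fold, limma adjusted p = 0.00163). Both Het-NMyc arrays lay below all 3 Het-Ctrl arrays for each gene. Of all probe sets 8.0% were called lower in Het (19.1% in either direction), and 21.3% had both Het-NMyc arrays below all Het-Ctrl arrays. In 3.76% this went together with both Hom-Ctrl arrays below all Het-Ctrl and WT-Ctrl arrays. The median of the 4 genes was -1.43, against -0.01 over all probe sets. The Het test says nothing of whether Het differs from Hom or WT, which was not tested.

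Consecutive sample codes fall into 3 runs (called code runs here), and the labels do not say what a run stands for. Within run 2, Het-NMyc minus Het-Ctrl was -1.58 for Lrrk2, -1.24 for Ipcef1, -1.69 for Nxpe5 and -1.05 for Rps6kc1. Within run 3 these were -1.88, -1.46, -1.38 and -0.79 in the same order of genes. In WT cells the effect was -2.22 and -2.54 within runs 2 and 3 for Lrrk2, -1.95 and -2.09 for Ipcef1, -2.27 and -2.70 for Nxpe5 and -1.89 and -1.40 for Rps6kc1. Hom cells have both vectors in run 2 alone, where Lrrk2 differed by -0.34, Ipcef1 by 0.42, Nxpe5 by -0.56 and Rps6kc1 by -0.30. The Hom values of Ipcef1 and Rps6kc1 therefore have no settled sign.

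The 4 genes also tracked each other over the 14 arrays, which share 6 groups and the choice of genes. Pearson's r was 0.98 for Lrrk2 with Ipcef1 and 0.89 to 0.91 for the other pairs. Among all named probe sets, the 3 most like Lrrk2 were Entpd1, an enzyme that breaks down extracellular ATP (r = 0.981), Mmp8, the neutrophil collagenase (0.981), and Cd177, a neutrophil surface protein (0.978). Cd177 averaged 8.36 in Hom-NMyc and 9.10 in Hom-Ctrl cells, 8.69 in Het-NMyc and 10.67 in Het-Ctrl cells, and 8.63 in WT-NMyc and 10.65 in WT-Ctrl cells. The 3 most like Ipcef1 were the cytokine gene Il16 (r = 0.978), Lrrk2 itself (0.977) and Il1r2, the decoy receptor of interleukin 1 (0.965). Il1r2 averaged 8.88 in Hom-NMyc and 9.09 in Hom-Ctrl cells, 9.27 in Het-NMyc and 10.40 in Het-Ctrl cells, and 9.26 in WT-NMyc and 10.53 in WT-Ctrl cells. Nxpe5 was most like Arhgap25, a GTPase-activating protein for Rac in leukocytes (r = 0.971), the ubiquitin ligase gene Mib2 (0.958) and the deubiquitinase gene Usp32 (0.957). Rps6kc1 was most like Adpgk, the ADP-dependent glucokinase (r = 0.958), Crispld2 (0.950) and Samd5 (0.948). Which genes come out on top depended on the measure, since 1 of these 12 pairings was kept with Spearman's rho and 2 with Pearson's r over the 6 group means.

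**Figure D3:**
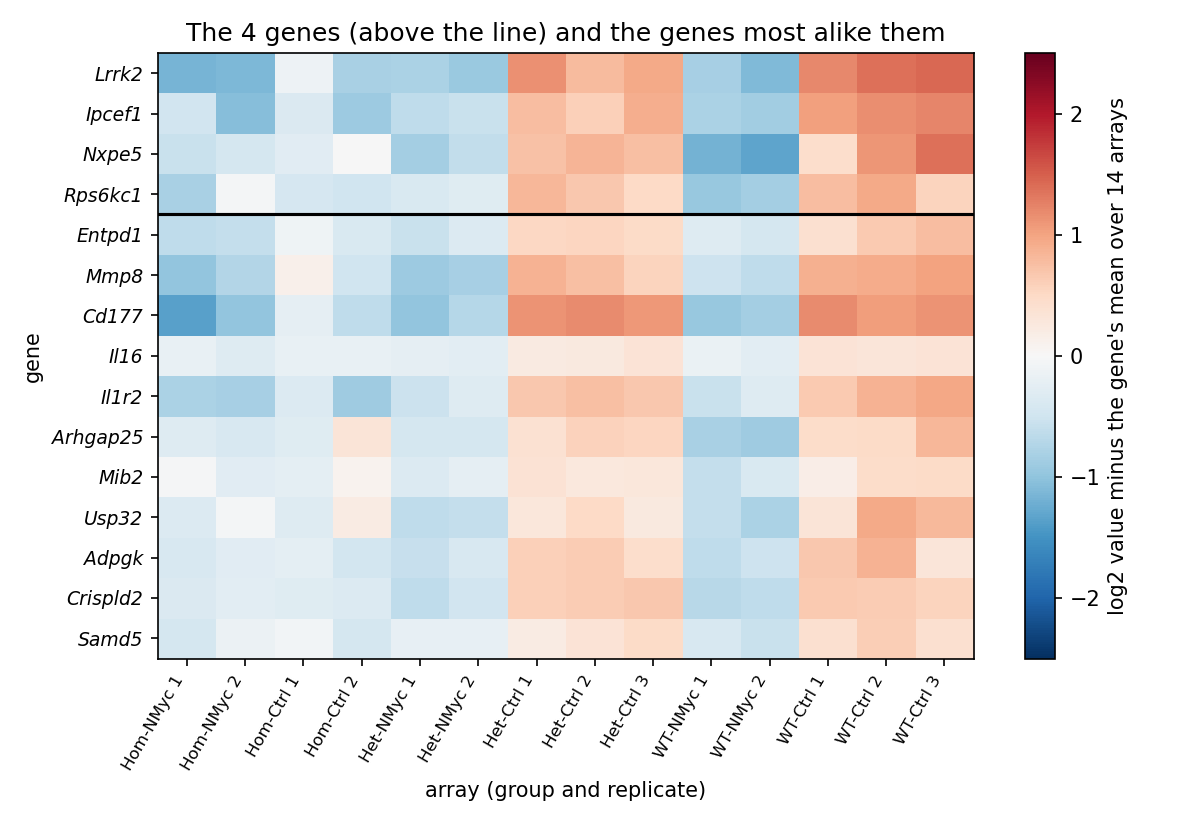
Log2 value minus the gene's mean over the 14 arrays (colour scale) for the 4 genes, above the line, and the genes with the highest Pearson r to them; columns are arrays by group and replicate. Each gene shown is above its mean in all Het-Ctrl and WT-Ctrl arrays, and the 4 genes are below it in all Hom-Ctrl and NMyc arrays, while Mmp8, Arhgap25, Mib2 and Usp32 are not below it in every one of those.

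Markers of maturing blood cells also differed between the groups. The mean log2 value of 9 neutrophil markers was 10.83 to 10.99 in Hom-NMyc arrays and 11.49 to 11.60 in Hom-Ctrl arrays. It was 10.89 to 10.90 in Het-NMyc and 11.95 to 12.07 in Het-Ctrl arrays, and 10.88 to 10.89 in WT-NMyc and 11.81 to 12.02 in WT-Ctrl arrays. The list's Hom-Ctrl level thus lay between the NMyc groups and the other Ctrl groups. Both Hom-Ctrl arrays were below all Het-Ctrl and WT-Ctrl arrays for 5 of the 9 (Ltf, Camp, Mmp9, S100a8 and S100a9), against 8.15% of all probe sets. With NMyc, 6 of the 9 were called lower in Hom (7.01% of all probe sets; list median -0.57), 7 in Het (8.0%; median -0.65) and 6 in WT (9.05%; median -0.63). Called higher were 2 of the 9 in Hom (10.7% of all probe sets), 0 in Het (11.1%) and 2 in WT (10.1%). For the Hom minus WT difference the list median was 0.13, and 1 of the 9, Ltf, was called (0.0811% of all probe sets). Elane and Mpo, granule genes of earlier myeloid precursors, differed by -0.02 and 0.01 between Hom-Ctrl and WT-Ctrl. All 9 were above the negative control median in all 14 arrays. The 9 monocyte, macrophage and dendritic markers averaged 8.15 to 8.66 in Hom-Ctrl, 8.44 to 9.05 in Het-Ctrl and 8.85 to 9.19 in WT-Ctrl arrays, and 6 of the 9 were called lower with NMyc in Het. Megakaryocyte and platelet markers fell with NMyc in Het in 8 of 8, yet Hom-Ctrl (8.81 to 9.08) overlapped Het-Ctrl (8.66 to 8.98) and WT-Ctrl (8.65 to 9.40). B lymphoid markers had 0 of 8 called by limma in Het, where 19.1% of all probe sets were called. At an unadjusted p under 0.05 there were 1 of 8, against 6408 of all 22206 probe sets. Counts among 8 markers are too small to set the list apart from all probe sets. Both Hom-Ctrl arrays lay below all other Ctrl arrays for 3 of 9 monocyte, macrophage and dendritic and 3 of 8 stem and progenitor markers. This held for 1 of 7 T and NK, 1 of 10 mast cell and basophil and 1 of 6 eosinophil markers. It held for 0 of 8 B lymphoid, 0 of 8 megakaryocyte and platelet and 0 of 6 erythroid markers. Kit is counted in both the mast cell and basophil list and the stem and progenitor list. The mast cell and basophil mean went the other way, at 10.99 to 11.27 in Hom-Ctrl arrays. That mean was 10.59 to 10.85 in Het-Ctrl and 10.68 to 10.93 in WT-Ctrl arrays. For the Hom minus WT difference, 1 of 6 eosinophil markers, Siglecf, was called. Never above the negative control median were Ncr1, Klrb1c, Il5ra and Epb42. The part of these cell types in the values of the 4 genes was not tested.

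**Figure D4:**
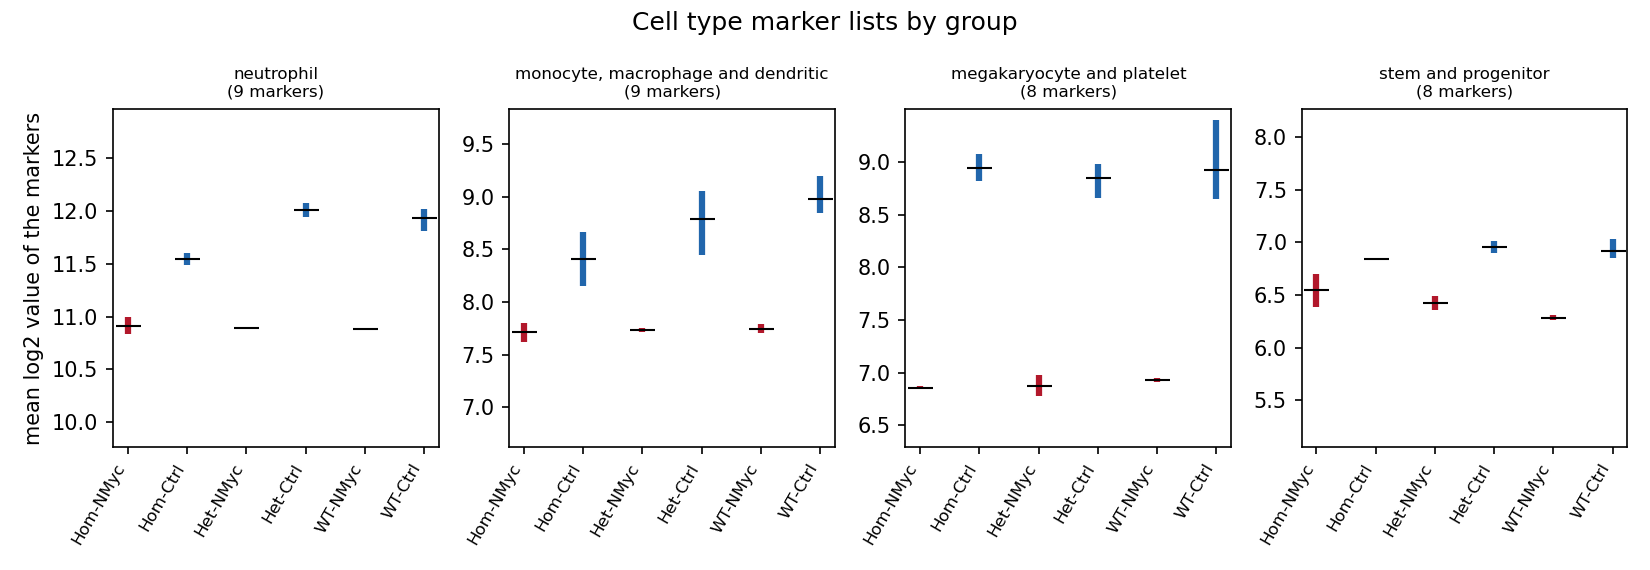
Mean log2 value of 4 marker lists by group (bars span the lowest to the highest array, black ticks the group means, red NMyc, blue Ctrl); each vertical axis spans 3.2 log2 units. The neutrophil list is lower in Hom-Ctrl (11.49 to 11.60) than in Het-Ctrl and WT-Ctrl, while the megakaryocyte and platelet list is at a like level in the 3 Ctrl groups.

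Relatives and partners of the 4 genes, and genes of familial Parkinson's disease, were read from 5 lists, of which 83 of 98 entries were measured. None of the 83 was called by limma for the Hom minus WT difference, where 0.0811% of all probe sets were called, so a count of 0 says little. At an unadjusted p under 0.05 there were 5 of the 83, against 1896 of all 22206 probe sets. The smallest adjusted p-values there were 0.219 for Nxpe2, 0.453 for Ppm1m (difference 0.61) and 0.523 for both Cytip (0.51) and Rab35 (0.69). For Lrrk2, the list of relatives, Rab substrates and partners had 6 of 27 members lower and 3 higher with NMyc in Het, with a median of 0.03. Of all probe sets 8.0% were called lower and 11.1% higher. Rab3d, a Rab of secretory granules, averaged 8.05 in Het-NMyc and 8.997 in Het-Ctrl cells and fell by 0.94 (SE 0.17, limma adjusted p = 0.000946). Rab8b fell by 0.72 (limma adjusted p = 0.00117) and Rab12 by 0.64 (limma adjusted p = 0.0046), and both encode Rab substrates of LRRK2. Ppm1m, a phosphatase related to the one that reverses LRRK2's Rab phosphorylation, fell by 0.79 (limma adjusted p = 0.00191). In WT the list had 4 lower and 1 higher, against 9.05% and 10.1% of all probe sets, and in Hom 5 lower and 2 higher, against 7.01% and 10.7%. Leaving out Het-NMyc replicate 2 left 3 lower and 0 higher and ended the call of Rab12 (limma adjusted p = 0.0958).

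Of 10 measured genes of familial Parkinson's disease, 2 were higher and 1 lower with NMyc in Het (median 0.10), near the 11.1% and 8.0% of all probe sets. Park7, whose product guards against oxidative stress, rose by 0.72 (SE 0.15, limma adjusted p = 0.0025). Chchd2, a mitochondrial intermembrane space protein, rose by 0.57 (limma adjusted p = 0.00392). Synj1, a lipid phosphatase of endocytosis, fell by 0.44 (limma adjusted p = 0.0471), but missed the threshold in 14 of 23 alternatives, with an adjusted p of 0.29 without Het-NMyc replicate 2. Uchl1 differed by -0.43 (limma adjusted p = 0.167). Park7 was higher with NMyc where Lrrk2 was lower. It averaged 9.67 in Hom-NMyc and 9.15 in Hom-Ctrl cells, 9.56 in Het-NMyc and 8.84 in Het-Ctrl cells, and 9.66 in WT-NMyc and 8.68 in WT-Ctrl cells. Its Hom minus WT difference of -0.46 was not called (limma adjusted p = 0.588).

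In the cytohesin and Arf6 list around Ipcef1, 7 of 29 genes were lower and 2 higher with NMyc in Het (median -0.26), against 8.0% and 11.1% of all probe sets. In WT 9 were lower and 2 higher, against 9.05% and 10.1%, and in Hom 4 lower and 2 higher, against 7.01% and 10.7%. Cyth4, the cytohesin of blood cells, averaged 9.18 in Het-NMyc and 9.83 in Het-Ctrl cells and fell by 0.65 (SE 0.14, limma adjusted p = 0.00267). Arap2, a GTPase-activating protein that acts on Arf6, fell by 0.77 (limma adjusted p = 0.00564). Git1, another Arf GTPase-activating protein, rose by 1.24 (SE 0.19, 2.35-fold, limma adjusted p = 0.000258), and Adap1, an Arf GTPase-activating protein that binds phosphoinositides, rose by 0.73 (limma adjusted p = 0.00403). Without Het-NMyc replicate 1 the list had 1 lower and 1 higher, and Cyth4 (limma adjusted p = 0.059) and Adap1 (limma adjusted p = 0.0523) missed the threshold. Without Het-Ctrl replicate 2 it had 4 lower.

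Among 10 S6 kinase relatives and RPS6KC1 partners, 2 rose and 1 fell with NMyc in Het (median -0.02), near the 11.1% and 8.0% of all probe sets. Prdx3, the mitochondrial peroxiredoxin that binds human RPS6KC1, rose by 0.89 (SE 0.19, limma adjusted p = 0.00313). Rps6kl1, a close relative of Rps6kc1, rose by 0.79 (limma adjusted p = 0.0225), and Rps6ka5, a kinase of histone H3 and CREB, fell by 0.53 (limma adjusted p = 0.0213). Leaving out Het-NMyc replicate 2 ended both of the last calls (limma adjusted p = 0.289 and 0.126). Of the 7 measured relatives of Nxpe5, 1 was called in Het (median 0.34), where 19.1% of all probe sets were. Nxph2, a neurexophilin gene, was 0.50 higher (limma adjusted p = 0.0409) at means of 4.09 in Het-NMyc and 3.60 in Het-Ctrl cells, both under the lowest negative control median of 4.39, and missed the threshold in 8 of 22 alternatives. Nxpe3 differed by 0.47 (limma adjusted p = 0.112). Nxpe2 read 5.98 in Hom-NMyc and 4.38 in Hom-Ctrl cells, against 6.08 in WT-NMyc and 5.75 in WT-Ctrl cells, and its Hom minus WT difference of 1.27 (SE 0.34) did not pass (limma adjusted p = 0.219). Its Hom-Ctrl mean is under the lowest negative control median, so that difference is taken against a value not above background.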

How the data were processed

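RNA of 14 HPC samples in 6 groups was measured on Affymetrix arrays. The authors deposited a table of log2 values for each probe set. The submitters' processing notes name Affymetrix Expression Console. The version, the summary method and the normalization: not given in the sources used here. Values of 2.24 to 13.47 fit a log2 scale. The labels call the samples biological replicates and do not say that they came from separate animals, so p-values cover the spread among these arrays only.

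Of 28846 probe sets, 6640 control sets were left out. Symbols came from the platform annotation (19572 probe sets with 1 symbol, 0 with several, 2634 unnamed), checked against RefSeq GRCm38.p6, which changed 0 symbols. All 14 arrays entered a limma 3.58.1 model with 6 group means (R 4.3.3, lmFit, eBayes, 8 residual and 7.3 prior degrees of freedom). P-values were two-sided and adjusted by Benjamini-Hochberg over 22206 probe sets, with a threshold of 0.05. The number of arrays limits the precision. The procedure was tested on simulated data. The 4 genes and all lists were chosen with earlier results of these data known. Named genes were the 4, Mycn, Myc, Polg, the 3 most alike each by Pearson's r (predicted and clone symbols left out), and up to 4 per list with the smallest p in Het and in the Hom minus WT difference. Alternatives were other scaling, control and dim-set filters, variance models, blocks, code runs, the Het arrays alone and each array left out. Replicate numbers did not pair the vectors: deviations of same-numbered arrays correlated at -0.133 to 0.0137. Those of arrays in the same code run correlated at 0.0681 to 0.133 in Het and WT and at -0.0137 in Hom. The main model had no term for code run, which entered only as an alternative.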

Additional observations from a re-analysis of the deposited data

How the results depend on the processing

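In Het cells the fall of each of the 4 genes kept its direction and its call in all 23 alternatives. The effect ran between -1.90 and -1.73 for Lrrk2, -1.44 and -1.28 for Ipcef1, -1.64 and -1.40 for Nxpe5, and -1.10 and -0.92 for Rps6kc1. Their highest limma adjusted p-values were 0.000496, 0.0033, 0.00395 and 0.0238, each without 1 Het-NMyc array. With the Het arrays alone in the fit they were 6.22e-05, 0.000222, 0.000116 and 0.0013. Within code run 2 the Lrrk2 difference was -1.58, from 1 array a group and with no test. With the replicate number as a block, the effects were -1.80, -1.30, -1.41 and -1.10 and no call of the 4 changed.

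The number of called probe sets moved more. With 1 array left out, it ran between 2490 and 4535 in Het, 2380 and 4287 in WT, and 1987 and 4228 in Hom, lowest without an NMyc array of that genotype. Without Hom-Ctrl replicate 1 it was 2396 in Hom. Code runs 2 and 3 alone gave 2597 in Hom. For the Hom minus WT difference (18 calls, and 1896 at an unadjusted p under 0.05) the count ran between 0 and 33 with 1 array left out. It was 0 without WT-NMyc replicate 1 or 2 or Hom-NMyc replicate 2, 1 without Hom-NMyc replicate 1, 8 to 11 without WT-Ctrl replicate 2 or 3, Hom-Ctrl replicate 2 or either Het-NMyc array, 33 without WT-Ctrl replicate 1 or Hom-Ctrl replicate 1, 5 with only AFFX controls left out and 62 with a trended, robust variance. The cause was not tested. Of the 12 most alike pairings, 1 was kept with Spearman's rho and 2 with r over group means. The Hom effect turned sign without 1 Hom-NMyc array for Ipcef1 (-0.43 to 0.15) and Rps6kc1 (-0.35 to 0.41). Each of the 4 had 1 probe set, so no other could be tried. Lrrk2 near the negative controls limits its fold changes.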
